A study of Homo sapiens with 6 samples.

Results

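Tight junction genes were examined in MHCC97H cells, an established human hepatocellular carcinoma (HCC) line, labelled as shPTBP1 or shControl. The set was named gene by gene: 18 claudins, 3 MARVEL proteins, 1 angulin, 3 junctional adhesion molecules (JAMs), 6 cytoplasmic scaffold genes and 4 polarity genes, 35 of the 58825 genes in the deposited table. The shPTBP1 libraries (n = 3) come from cells stably given a short hairpin RNA against PTBP1, an RNA-binding protein that controls splicing, and the shControl libraries (n = 3) from cells given a control hairpin. Which hairpin each library carries, and whether the cells were a selected pool or a clone, is not given in the sources used here. The study describes its data in general as independent experiments, but the labels do not say that the 3 libraries of a group are separate cultures, so p-values measure the spread between these libraries, which may be technical. The question addressed was which claudins these cells express, where CLDN12 stands among them, and which junction genes differ between shPTBP1 and shControl cells.

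Tight junctions seal the space between neighbouring epithelial cells. Claudins are four-pass membrane proteins whose strands close that space or line it with ion-selective pores, so the mix of claudins sets what a cell layer lets through. MARVEL proteins and angulins organise the strands and the corners where several cells meet, JAMs are adhesion proteins of the immunoglobulin family, and scaffold and polarity proteins tie the strands to actin and set the top and bottom of the cell. In liver, tight junctions of hepatocytes separate bile canaliculi from blood.

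The libraries held between 68704509 and 85317970 counts. PTBP1 itself was at 17.3, 16.9 and 18.0 FPKM (fragments per kilobase per 1000000 fragments) in shPTBP1 libraries 1, 2 and 3, against 21.2, 16.4 and 27.4 FPKM in shControl libraries 1, 2 and 3. The groups overlapped, and the log2 fold change of PTBP1 of -0.29 (standard error (SE) 0.18, adjusted p = 0.953, edgeR quasi-likelihood test) did not exceed the scatter among shControl libraries, so each direction given here goes by the labels. The paper states that its PTBP1 transfections, those of MHCC97H among them, were checked by western blot and quantitative PCR. Whether that check was made on the cells sequenced here is not stated. PTBP2, a related gene that PTBP1 is known to hold down, was at 3.8, 4.06 and 3.21 FPKM in shPTBP1 libraries, against 2.01, 1.88 and 0.61 FPKM in shControl libraries, without overlap (log2 fold change 1.32, SE 0.41, unadjusted p = 0.0152, adjusted p = 0.718, edgeR). Of 11 hepatocyte markers, 10 were below 0.1 FPKM in all libraries and 6, ALB, AFP, APOB, TTR, FGB and TF, were at 0 in all. The name of the line, like the group names, is taken from the labels. The summed FPKM of 8 red-cell markers was 0.88 to 656 in shPTBP1 libraries and 1.09 to 990 in shControl libraries, with the lowest values in library 3 of each group, as were those of 10 leukocyte markers at 0.12 and 0.15 FPKM. Of the endothelial markers, PECAM1 was at 0.53, 0.03 and 0.40 FPKM in shPTBP1 libraries, against 0.35, 0.03 and 0.46 FPKM in shControl libraries, lowest in library 2 of each group. Fits without the libraries numbered 3, or with number 3 as a covariate, are given beside CLDN12, CLDN7, CLDN1 and F11R.

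In the fit without covariates, only CLDN12 of the tight junction genes rose past the threshold of an adjusted p under 0.05. CLDN12 (ENSG00000157224, plus strand of chromosome 7 from 90383721 to 90513402 on hg38) encodes an unusual claudin whose tail lacks the motif that binds PDZ scaffold proteins and which is known for calcium passage in the gut. Its level was 7.86, 6.41 and 6.20 FPKM in shPTBP1 libraries 1, 2 and 3, against 1.76, 1.79 and 1.76 FPKM in shControl libraries. Every shPTBP1 library lay above every shControl library, and the lowest shPTBP1 value was far outside the spread of the shControl values. The group means were 6.82 ± 0.904 FPKM in shPTBP1 and 1.77 ± 0.0173 FPKM in shControl (SD, n = 3 each). On counts the log2 fold change of CLDN12 was 1.97 (SE 0.14, adjusted p = 0.0142, edgeR). In bulk RNA, more cells with CLDN12 and more CLDN12 RNA per cell cannot be told apart. Over all 19393 genes tested, 0.0309% were called at this threshold.

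The size of the CLDN12 difference hardly moved when a library was left out, while its call did, and over all 15 alternatives with a test CLDN12 was called in 10 and not in 5. With each library left out in turn, the log2 fold change of CLDN12 stayed between 1.85 and 2.03, but the adjusted p ran from 0.0178 to 0.0977 and passed in 2 of 6 fits, those without shPTBP1 3 or without shControl 3. It was 0.052 without shPTBP1 1, 0.0545 without shPTBP1 2, 0.055 without shControl 1 and 0.0977 without shControl 2. With the replicate number as a block, the log2 fold change was 1.96 and CLDN12 was not called (adjusted p = 0.233, edgeR). That fit called 0 genes. Within the libraries numbered 1 and 2, which hold the red-cell transcripts, the log2 fold change was 2.01 (adjusted p = 0.0458, edgeR, beside 0.319% of all genes called in that fit). With number 3 as a covariate it was 1.97 (adjusted p = 0.039, edgeR). In the libraries numbered 3, where those transcripts were nearly absent, CLDN12 was at 6.20 FPKM in shPTBP1 and 1.76 FPKM in shControl.

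**Figure D1:**
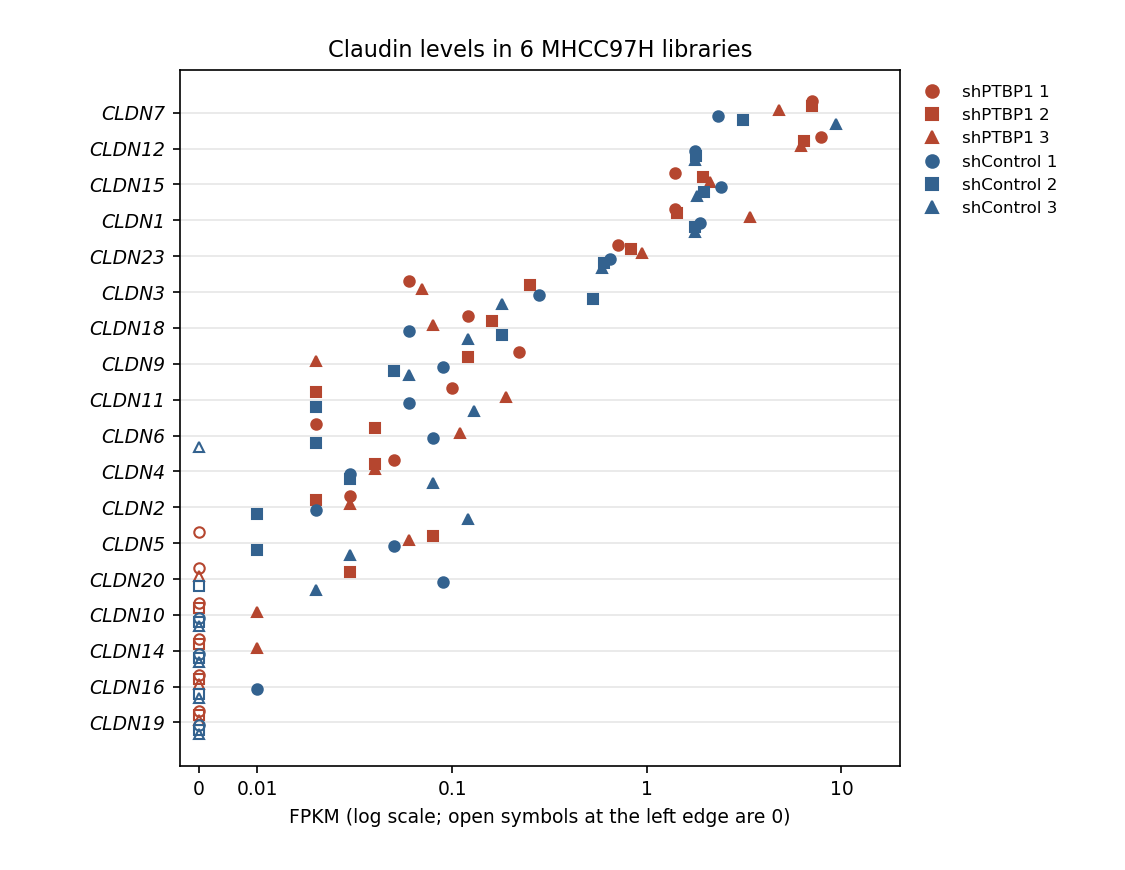
FPKM of each of the 18 claudins (log axis, open symbols at the left edge are values of 0) in shPTBP1 libraries (red, upper row of each gene) and shControl libraries (blue, lower row), 1 symbol a library. CLDN12 separates at 6.20 to 7.86 FPKM in shPTBP1 against 1.76 to 1.79 FPKM in shControl, CLDN7 overlaps widely, and 13 claudins stay below 0.6 FPKM in every library.

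The claudin repertoire of these cells rested on 4 genes, CLDN1, CLDN7, CLDN12 and CLDN15, the ones at 1 FPKM or more in every library. Together they made up between 85.5% and 93.1% of the summed claudin FPKM of a library. CLDN23 came next at 0.59 to 0.94 FPKM, and the other 13 claudins were below 0.6 FPKM in all libraries, 11 of them below 0.2 FPKM.

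CLDN7 and CLDN12 were the pair at the head of the list in shPTBP1 cells. CLDN7 (ENSG00000181885, minus strand of chromosome 17 from 7259903 to 7263204), a sealing claudin that partners with the adhesion protein EPCAM, was at 7.08, 7.04 and 4.79 FPKM in shPTBP1 libraries, against 2.33, 3.11 and 9.35 FPKM in shControl libraries. Its lowest and highest values were both in shControl, in libraries 1 and 3, so the groups overlapped. The log2 fold change of CLDN7 was 0.39 (SE 0.49, adjusted p = 0.981, edgeR), and it ran from 0.06 to 1.22 with each library left out in turn, the highest being that without shControl 3. Within the libraries numbered 1 and 2 it was 1.38 (SE 0.18, adjusted p = 0.0815, edgeR), and with number 3 as a covariate 0.65 (SE 0.49, adjusted p = 0.87, edgeR). EPCAM was listed at 0 in all 6 libraries.

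CLDN1 (ENSG00000163347, minus strand of chromosome 3 from 190305707 to 190322446) forms the barrier of skin and bile canaliculi and is a co-receptor for hepatitis C virus. It was at 1.40, 1.43 and 3.38 FPKM in shPTBP1 libraries, against 1.87, 1.76 and 1.77 FPKM in shControl libraries. Libraries 1 and 2 of shPTBP1 lay below every shControl library and library 3 above. The log2 fold change of CLDN1 of 0.23 (SE 0.36, adjusted p = 0.982, edgeR) therefore rested on 1 library, and without shPTBP1 3 it was -0.33. Within the libraries numbered 1 and 2 it was -0.35, and with number 3 as a covariate 0.09.

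CLDN15 (ENSG00000106404, minus strand of chromosome 7 from 101232092 to 101238820) lines sodium pores in the intestine. It was at 1.40, 1.95 and 2.11 FPKM in shPTBP1 libraries, against 2.41, 1.97 and 1.81 FPKM in shControl libraries. These values overlapped, with a log2 fold change of CLDN15 of -0.15 (SE 0.23, adjusted p = 0.982, edgeR). CLDN23 (ENSG00000253958, plus strand of chromosome 8 from 8701938 to 8704106), a claudin gene without introns, was at 0.71, 0.83 and 0.94 FPKM in shPTBP1 libraries, against 0.65, 0.60 and 0.59 FPKM in shControl libraries. Its groups did not overlap, but its log2 fold change of 0.46 (SE 0.24, unadjusted p = 0.0968, adjusted p = 0.935, edgeR) did not pass.

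By mean FPKM, CLDN12 took place 1 among the claudins in shPTBP1 cells, against place 4 in shControl cells. Its rank in shPTBP1 libraries 1, 2 and 3 was 1, 2 and 1, against 4, 3 and 4 in shControl libraries. In shControl, CLDN7 at 4.93 ± 3.85 FPKM lay above CLDN1 and CLDN12 in every library but below CLDN15 in library 1. CLDN15 at 2.06 ± 0.311 FPKM also lay above CLDN12 in every shControl library, by little in library 3, while CLDN1 at 1.80 ± 0.0608 and CLDN12 at 1.77 ± 0.0173 FPKM (SD, n = 3) did not keep 1 order. In shPTBP1, CLDN12 at 6.82 ± 0.904 FPKM and CLDN7 at 6.30 ± 1.31 FPKM could not be ordered beyond their spread, and by medians CLDN7 led. Both lay above CLDN1 at 2.07 ± 1.13 and CLDN15 at 1.82 ± 0.372 FPKM in every shPTBP1 library.

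The share of CLDN12 in the summed claudin FPKM was 41.3%, 34.8% and 34.4% in shPTBP1 libraries, against 18.0%, 17.8% and 11% in shControl libraries. No shPTBP1 library overlapped the shControl range, with means of 36.8% ± 3.86 in shPTBP1 and 15.6% ± 3.97 in shControl (SD, n = 3 each). The claudin sum itself was 19.1, 18.4 and 18.0 FPKM in shPTBP1 libraries, against 9.79, 10.1 and 16.0 FPKM in shControl libraries. Without CLDN12 the sums overlapped, at 11.7 ± 0.433 FPKM in shPTBP1 and 10.2 ± 3.52 FPKM in shControl (SD, n = 3 each), and the high shControl sum was that of library 3, where CLDN7 was highest.

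**Figure D2:**
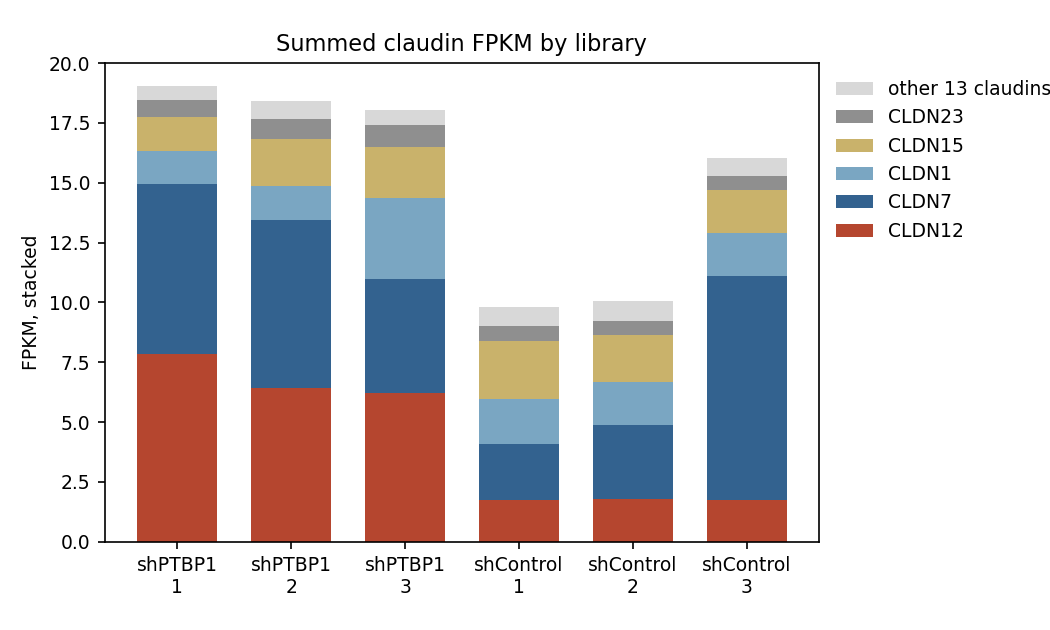
Stacked FPKM of the claudins in each library (bars start at 0, 1 bar a library, no error bars), with CLDN12 at the base. CLDN12 makes up 34.4% to 41.3% of the bar in shPTBP1 and 11% to 18.0% in shControl, and CLDN7 fills most of the bar of shControl 3.

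The place of CLDN12 in this order depends on the length its reads are divided by. The ratio of counts to FPKM implied a length 1.19 times that of all annotated exons of CLDN12 and 1.18 to 1.23 times for the 15 genes of the set where it could be computed, so the deposited FPKM scale with the joined length of all exons of a gene. The longest coding transcript of CLDN12, of 3565 bases, is shorter than the 6741 bases of its joined exons. Divided by the longest coding transcript of each claudin, CLDN12 was at 17.7, 14.4 and 14.2 counts per 1000000 (CPM) per kilobase in shPTBP1 libraries, against 3.98, 3.98 and 3.86 in shControl libraries. By group means on that scale CLDN12 ranked 1 in shPTBP1 and 2 in shControl, where CLDN7 was at 3.64, 4.77 and 14.1 CPM per kilobase and lay below CLDN12 in library 1.

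Short stretches ahead of a RefSeq start of CLDN12 and of CLDN7 are shown because these were the 2 leading claudins. RefSeq promoter windows (GRCh38.p14, the 250 bases before a gene's start, both strands searched) were found for 25 of the 35 genes. Capitals mark ACTACAATTCCC, here as its reverse complement, in CLDN12, the 12-letter run of its window, with 3 or more different bases, that recurs in the largest number of windows and whose letters are known from sites of the activator ZNF143, and CAGGTG or its reverse complement CACCTG in CLDN7, the E-box letters that the repressors SNAI1, SNAI2, ZEB1 and ZEB2 bind.
CLDN12 chr7:90403361-90403390 plus strand: gtggattctGGGAATTGTAGTcccagccat
CLDN7 chr17:7262479-7262508 minus strand: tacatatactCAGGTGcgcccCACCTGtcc

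The CLDN12 stretch printed starts 100 bases before its RefSeq start and lies inside the annotated gene, which begins at 90383721. Further coding GENCODE transcripts start at 90403353, before the stretch, and at 90403386, within it. ACTACAATTCCC was picked from the CLDN12 window itself, among 230 runs searched, so its presence there was set by the choice. It was in the window of none of the other 24 genes with a window, and in 0.219% of all 35116 windows. The letters CCAAT occurred once in the CLDN12 window and once in the CLDN7 window ahead of the outermost RefSeq start listed. They were found in 32.0% of all windows. CAGGTG was absent from the CLDN12 window. It occurred 4 times in the CLDN7 window the stretch comes from, which lies inside the annotated gene ahead of an inner start. It occurred 0 times in the CLDN7 window ahead of the outermost RefSeq start listed. Windows of 8 of the 25 genes held it (CLDN7, CLDN14, CLDN18, CRB3, OCLN, PATJ, TJP1 and TJP3), as did 17.5% of all windows. The 25 genes have 38 windows, so a count by gene and a share by window are not comparable. These are matches of letters and were not tested for binding.

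The remaining claudins were low, and some were at or near the limit of detection. CLDN3 and CLDN4, sealing claudins of many epithelia encoded near each other on chromosome 7, were at 0.06 to 0.53 FPKM and 0.03 to 0.08 FPKM over the 6 libraries. CLDN3 had 0.06, 0.25 and 0.07 FPKM in shPTBP1 libraries, against 0.28, 0.53 and 0.18 FPKM in shControl libraries, which overlapped, with the lowest log2 fold change of the set, -1.37 (SE 0.73, unadjusted p = 0.101, adjusted p = 0.948, edgeR). CLDN2, a cation and water pore of leaky epithelia, was at 0.01 to 0.12 FPKM, and CLDN5, the sealing claudin of blood vessels, at 0 to 0.08 FPKM.
CLDN18 of stomach and lung and CLDN9 of the inner ear did not exceed 0.18 and 0.22 FPKM, and CLDN11 of myelin and testis reached 0.19 FPKM. CLDN6, an embryonic claudin, reached 0.11 FPKM and CLDN20 0.09 FPKM. CLDN10, an ion channel claudin, CLDN14 of the inner ear and CLDN16, needed for magnesium uptake in the kidney, were at 0.01 FPKM in 1 library each and at 0 in the others. CLDN19, the partner of CLDN16, had 0 counts in all libraries. If each count stood for a separate fragment, this would allow up to 3 counts, or 0.0352 to 0.0437 CPM of the library total. The depth in fragments is unknown, so the true limits may be higher. They cover counting error only.

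Of the strand organisers, none was well expressed. Occludin (OCLN) was at 0.09, 0.08 and 0.14 FPKM in shPTBP1 libraries, against 0.08, 0.06 and 0.03 FPKM in shControl libraries, tricellulin (MARVELD2) at 0.15, 0.07 and 0.07 FPKM against 0.13, 0.18 and 0.19 FPKM, and MARVELD3 did not exceed 0.07 FPKM. Both OCLN (log2 fold change 0.85, SE 0.47, adjusted p = 0.948, edgeR) and MARVELD2 (log2 fold change -0.79, SE 0.43, adjusted p = 0.948, edgeR) had overlapping groups and missed the threshold. LSR, the angulin that brings tricellulin to cell corners, ranged from 0.53 to 0.70 FPKM in shPTBP1 libraries and from 0.55 to 1.18 FPKM in shControl libraries.

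Among the JAMs, F11R was the one expressed, and it varied more between libraries than any other gene of the set at 1 FPKM or more in every library. F11R (JAM-A, ENSG00000158769, which also serves as a reovirus receptor) was at 10.6, 1.80 and 2.31 FPKM in shPTBP1 libraries, against 1.40, 5.65 and 13.2 FPKM in shControl libraries. High and low libraries occurred in both groups, with a 9.40-fold range that did not follow the labels. Its log2 fold change was -0.42 (SE 0.89, adjusted p = 0.988, edgeR). With each library left out in turn it ran from -1.67 to 0.50, the positive value being that without shControl 3. Within the libraries numbered 1 and 2 it was 0.83, and with number 3 as a covariate -0.16. TSTD1, which overlaps F11R, was at 7.15, 6.15 and 6.0 CPM in shPTBP1 libraries, against 3.50, 3.71 and 7.20 CPM in shControl libraries. Like F11R, TSTD1 was highest in shControl 3 and shPTBP1 1 and lowest in shControl 1. It did not share the low F11R values of shPTBP1 2 and 3. JAM2 and JAM3, known from blood vessels and leukocyte passage, did not exceed 0.15 and 0.46 FPKM.

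Of the scaffold genes, TJP1, MAGI1 and MAGI3 were expressed and the others were below 1 FPKM. TJP1 (ZO-1), the main scaffold that links claudins to actin, was at 4.40, 5.04 and 4.92 FPKM in shPTBP1 libraries, against 4.62, 6.05 and 4.42 FPKM in shControl libraries, with a log2 fold change of -0.04 (SE 0.15, adjusted p = 0.995, edgeR). MAGI1, a multi-PDZ scaffold, was at 2.73, 2.69 and 2.49 FPKM in shPTBP1 libraries, against 2.30, 2.66 and 2.67 FPKM in shControl libraries. Its relative MAGI3 was at 2.16, 1.87 and 1.42 FPKM in shPTBP1 libraries, against 1.20, 1.90 and 1.79 FPKM in shControl libraries. The groups overlapped in all of these genes, and the log2 fold changes were 0.08 (SE 0.11) for MAGI1 and 0.19 (SE 0.23) for MAGI3. Cingulin (CGN), which joins ZO proteins to myosin, was at 0.65 to 0.98 FPKM, while its relative CGNL1 and ZO-3 (TJP3) did not exceed 0.13 and 0.30 FPKM.

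The polarity gene PARD3, the organiser of the PAR complex at the junction, had the highest mean FPKM of the set. It was at 7.71, 7.77 and 8.13 FPKM in shPTBP1 libraries, against 7.33, 8.77 and 7.76 FPKM in shControl libraries. This was a log2 fold change of 0.01 (SE 0.11, adjusted p = 0.996, edgeR), whose sign turned under other scalings of the libraries, and a range of 1.20-fold over the 6 libraries. PATJ, the multi-PDZ protein of the Crumbs complex, was at 3.12, 3.66 and 3.07 FPKM in shPTBP1 libraries, against 2.50, 3.00 and 2.97 FPKM in shControl libraries. Its groups did not overlap, but the difference was small, with a log2 fold change of 0.25 (SE 0.12, unadjusted p = 0.0867, adjusted p = 0.932, edgeR). PARD6B, the PAR adaptor that binds CDC42, was at 0.96, 0.99 and 0.78 FPKM in shPTBP1 libraries, against 1.17, 1.08 and 0.77 FPKM in shControl libraries, which overlapped, and CRB3, the Crumbs protein of epithelia, did not exceed 0.07 FPKM.

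**Figure D3:**
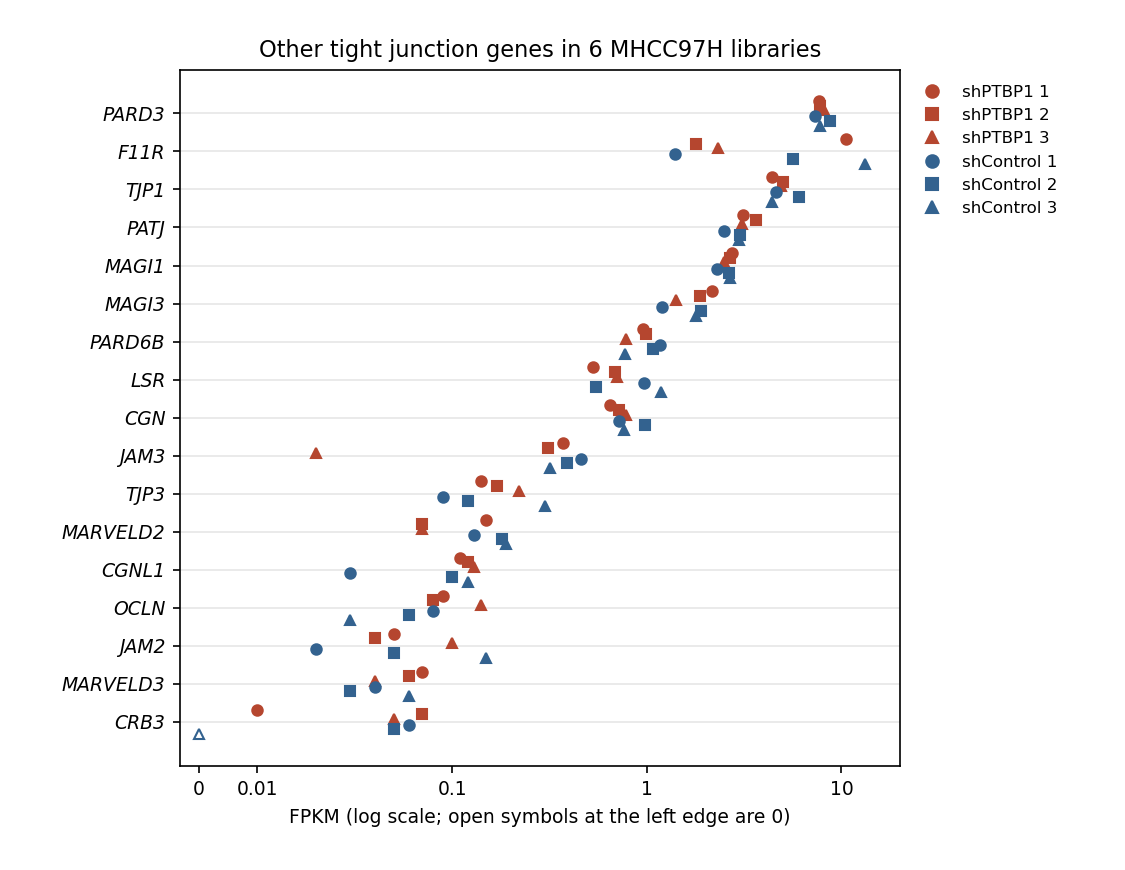
FPKM of the 17 members other than claudins (log axis, open symbols at the left edge are values of 0) in shPTBP1 libraries (red, upper row) and shControl libraries (blue, lower row), 1 symbol a library. PARD3 at 7.33 to 8.77 FPKM and TJP1 at 4.40 to 6.05 FPKM are tight across libraries, while F11R runs from 1.40 to 13.2 FPKM with both groups mixed.

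Over the whole set, 27 of the 35 members had enough counts to be tested by edgeR, 11 of 18 claudins and 16 of the other 17. CLDN12 was 1 of the 27 called at an adjusted p under 0.05, beside 0.0309% of all genes tested (0.0206% higher and 0.0103% lower in shPTBP1), and also the 1 gene at an unadjusted p under 0.05, beside 5.69% of all genes (3.58% higher in shPTBP1). Groups that did not overlap, all higher in shPTBP1, were found in 3 of the 27 (CLDN12, CLDN23 and PATJ), beside 6.49% of all genes, and groups wholly lower in 0, beside 5.46% (11.9% in either direction). A share of 3 in 27 is not far from the background, and nothing about the set as a whole was read from it. The median log2 fold change was 0.08 over the 27 genes, 0.06 over the 26 without CLDN12 and -0.01 over all genes tested, with 16 of 27 above 0.

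**Figure D4:**
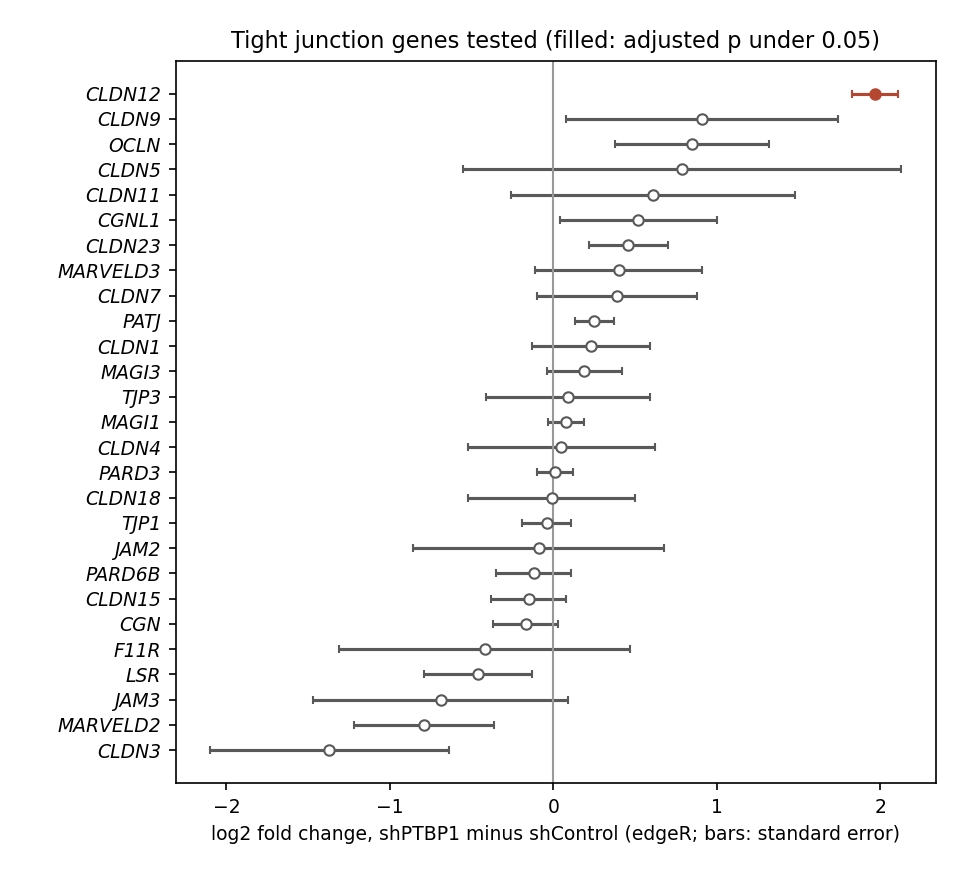
Log2 fold change, shPTBP1 minus shControl, with its standard error for the 27 genes of the set that passed the filter on low counts, ordered by value. CLDN12 (filled, 1.97 with a standard error of 0.14) stands apart, and the other 26 genes run from -1.37 for CLDN3 to 0.91 for CLDN9 without passing the adjusted threshold.

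None of the neighbours of CLDN12 passed the test that CLDN12 passed. Of 17 genes annotated within 500 kb, 5 passed the filter and 0 were called by edgeR, also with 0 of them at an unadjusted p under 0.05. GTPBP10, a GTPase gene whose end overlaps the start of CLDN12 on the same strand, was at 24.0, 14.2 and 27.8 CPM in shPTBP1 libraries, against 16.8, 19.1 and 16.0 CPM in shControl libraries (log2 fold change 0.35, SE 0.25). CDK14, a cyclin-dependent kinase gene that overlaps the far end of CLDN12 on the same strand, was at 30.8, 30.3 and 26.5 CPM in shPTBP1 libraries, against 28.1, 35.4 and 33.8 CPM in shControl libraries (log2 fold change -0.15, SE 0.14). STEAP1, a metalloreductase gene (log2 fold change -0.19), CFAP69 (-0.04) and the noncoding AC002456 (ENSG00000223969, -0.90, adjusted p = 0.893) lie apart from CLDN12.
Because of these overlaps, reads in the shared stretches cannot be assigned to 1 gene with certainty. Summed over CLDN12 and the 4 genes that overlap it, the level was 118, 95.8 and 105 CPM in shPTBP1 libraries, against 59.1, 68.7 and 63.6 CPM in shControl libraries. The groups stayed apart on the sum, with a log2 ratio of means of 0.74, and CLDN12 alone was at 63.2, 51.2 and 50.6 CPM in shPTBP1 libraries, against 14.2, 14.2 and 13.8 CPM in shControl libraries. CLDN12 has 15 annotated transcripts, 6 of them coding, and the values per gene do not say which of these rose.

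**Figure D5:**
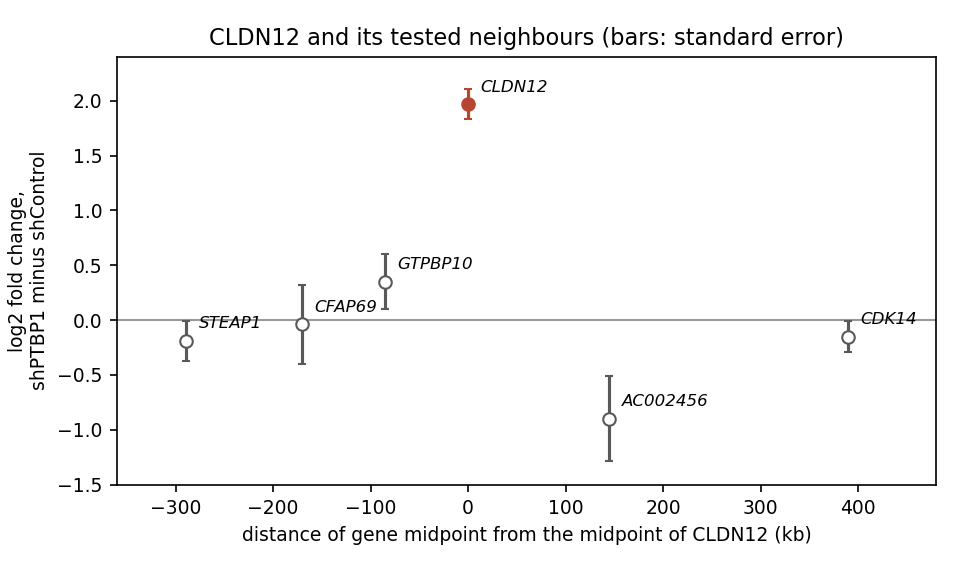
Log2 fold change, shPTBP1 minus shControl, with its standard error for CLDN12 (filled) and the 5 tested genes within 500 kb, against the distance between gene midpoints in kb. CLDN12 is at 1.97, and the neighbours lie between -0.90 and 0.35.

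Genes that work beside the set were read from lists of their own. Of 41 symbols listed for other tight junction genes, 40 were in the table, 31 were tested and 0 passed the adjusted threshold of edgeR. At an unadjusted p under 0.05 (edgeR), 1 was higher and 1 lower, beside 3.58% and 2.11% of all genes tested. The higher one, AMOTL1, of the angiomotin family of junction proteins, was at 3.94, 4.21 and 4.17 FPKM in shPTBP1 libraries, against 2.45, 3.17 and 2.85 FPKM in shControl libraries (log2 fold change 0.57, SE 0.13, unadjusted p = 0.00254, adjusted p = 0.433, edgeR). Its groups did not overlap. Further genes of this list among those with the smallest p-values were PARD3B, a relative of PARD3 (log2 fold change 0.54, unadjusted p = 0.0587, edgeR), and PARD6A, a relative of PARD6B (log2 fold change -0.64, unadjusted p = 0.0593, edgeR).

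Genes of the adjacent adhesive junctions, adherens junctions and desmosomes, summed to 343 to 390 FPKM in shPTBP1 libraries and 332 to 368 FPKM in shControl libraries. Of 21 such genes, all tested, 0 passed the adjusted threshold of edgeR. An unadjusted p under 0.05 was found for 1 of the 21, beside 5.69% of all genes tested (edgeR). CTNND1 (p120-catenin), which keeps cadherins at the surface, was at 26.5, 27.0 and 25.2 FPKM in shPTBP1 libraries, against 22.2, 13.8 and 13.7 FPKM in shControl libraries (log2 fold change 0.69, SE 0.21, unadjusted p = 0.0121, adjusted p = 0.671, edgeR). Every shPTBP1 library lay above every shControl library. Other genes with the smallest p-values were the desmosomal cadherin DSG2 (log2 fold change 0.21), the nectin linker AFDN (-0.36) and CTNNB1, encoding beta-catenin (0.16), each with an adjusted p of 0.933 or 0.953 (edgeR). CDH1 (E-cadherin) was at 0.02 to 0.03 FPKM in shPTBP1 libraries and 0.03 to 0.05 FPKM in shControl libraries.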

How the data were processed

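Poly(A) RNA of 6 MHCC97H libraries was sequenced after a dUTP second-strand preparation. The submitters' processing notes list cutadapt 1.9, FastQC, HISAT2 2.2.1, StringTie and hg38; settings and strand use in counting are not given in the sources used here. The authors deposited, per gene and library, FPKM and estimated counts (whole numbers, of which 32.55% to 34.43% of those from 1 to 40 were multiples of 4, so the depth in fragments is unknown). All 6 libraries' columns were matched to titles.

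Counts were tested with edgeR 4.0.16 in R 4.3.3 (TMM scaling, filterByExpr, quasi-likelihood F test, two-sided, Benjamini-Hochberg adjustment over 19393 genes, threshold 0.05, no covariates). SE is the absolute log2 fold change divided by the square root of F. CPM are counts per 1000000 after TMM scaling. GENCODE release 29 gave coordinates, and RefSeq windows (GRCh38.p14) gave sequence. Scripts were tested on simulated data.

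The named genes were CLDN12, members at a mean of 1 FPKM or more in a group, or with an unadjusted p under 0.05 or groups without overlap, with others given by range; neighbours within 500 kb; and the 4 smallest p-values of other lists, of which 1 gene is not reported here. CLDN3, OCLN, MARVELD2, PTBP2, PECAM1 and the E-box factors were added after their values were seen. Members and lists were chosen with earlier results of these data known. Alternatives were DESeq2 1.42.0, limma 3.58.1 on log2(FPKM + 1) or log2(FPKM + 0.1) at a mean of at least 1 FPKM, no TMM, no filter, counts divided by 4, a replicate block, libraries 1 and 2 only, number 3 as covariate, each library left out, medians, and, chosen after seeing the data, CPM per coding transcript length and CLDN12 summed with overlapping genes. Python 3.11.15, pandas 2.3.3 and matplotlib 3.10.9 were used.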

Additional observations from a re-analysis of the deposited data

How the results depend on the processing

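CLDN12 kept its direction in all 15 alternatives with a test, with log2 fold changes from 1.49 to 2.03 and adjusted p from 1.27e-24 (DESeq2) to 0.233, and passed the threshold in 10. The replicate block gave 1.96 (adjusted p = 0.233, edgeR). Same-numbered libraries correlated at -0.009, 0.158 and 0.083 in their deviations, and differently numbered ones at -0.139 to 0.047. Red-cell and leukocyte markers were lowest in library 3 of both groups, and PECAM1 in library 2 of both. The labels do not say what a number marks, so the fit without a block was kept as the main one, and pairing by number was not settled. Without one library each, CLDN12 ran from 1.85 to 2.03, the number of members called from 0 to 1 and the genes called from 2 to 136. Against 6 genes called, the block called 0 (987 at an unadjusted p under 0.05, edgeR), DESeq2 166, the libraries numbered 1 and 2 alone 63 and number 3 as a covariate 3; the block called 0 members. The sum of CLDN12 and the genes that overlap it, GTPBP10 and CDK14 among them, had a log2 ratio of means of 0.74. Mean CPM of that sum was 106 in shPTBP1 and 63.8 in shControl. For CLDN12 alone the means were 55.0 and 14.1 CPM, so the ratio of the sum is not that of CLDN12. By medians CLDN12 ranked 2 in shPTBP1, and per coding transcript it ranked 2 in shControl.

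Of 161 values of the 11 other named members under alternatives, 147 kept their direction and 0 were called. With numbers 1 and 2 only, CLDN7 was at 1.38, CLDN1 at -0.35, F11R at 0.83 and PARD3 at -0.05. PARD3 was at -0.02 without TMM and at -0.01 with limma at either pseudocount. With each library left out in turn, CLDN1 ran from -0.33 to 0.45, F11R from -1.67 to 0.50, TJP1 from -0.14 to 0.11, PARD3 from -0.03 to 0.09 and PARD6B from -0.29 to 0.01; the cause was not tested. Of the 18 claudins, 7 did not pass the filter on low counts and have no test.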

Other observations

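Regulators of the epithelial state were read from a list of 22 genes, 16 of them tested, with 0 past the adjusted threshold of edgeR. At an unadjusted p under 0.05 (edgeR) there were 2, both higher in shPTBP1, beside 5.69% of all genes tested (3.58% higher). Nothing about the list as a whole was read from this count. KRT8, a keratin of simple epithelia, was at 47.8, 53.2 and 49.5 FPKM in shPTBP1 libraries, against 41.8, 43.4 and 37.7 FPKM in shControl libraries (log2 fold change 0.32, SE 0.10, unadjusted p = 0.0171, adjusted p = 0.726, edgeR). EHF, an epithelial transcription factor, was at 0.14, 0.19 and 0.16 FPKM in shPTBP1 libraries, against 0.03, 0.07 and 0.07 FPKM in shControl libraries (log2 fold change 1.47, SE 0.45, unadjusted p = 0.0138, adjusted p = 0.696, edgeR). TWIST1, a mesenchymal transcription factor, and VIM, the mesenchymal filament gene, had log2 fold changes of 0.58 and 0.20 (unadjusted p = 0.0651 and 0.0818, edgeR).

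Of the factors known to bind the E-box letters printed for CLDN7, SNAI2 and ZEB1 were above 1 FPKM in every library, while SNAI1 did not exceed 0.96 FPKM and ZEB2 0.49 FPKM. SNAI2 was at 4.32, 11.6 and 7.58 FPKM in shPTBP1 libraries, against 7.89, 8.15 and 8.19 FPKM in shControl libraries, and ZEB1 at 2.60, 2.01 and 1.89 FPKM in shPTBP1 libraries, against 2.25, 1.54 and 2.35 FPKM in shControl libraries. Their groups overlapped, with log2 fold changes of -0.02 (SE 0.32) and 0.11 (SE 0.21). Of the epithelial regulators in the list, GRHL2, GRHL3, OVOL1, OVOL2 and ESRP1 were at or near 0 in all libraries and GRHL1 did not exceed 0.41 FPKM. ELF3 was at 3.8, 4.10 and 3.88 FPKM in shPTBP1 libraries, against 2.77, 3.14 and 4.71 FPKM in shControl libraries, and ESRP2 at 4.45, 5.95 and 6.11 FPKM in shPTBP1 libraries, against 4.29, 6.63 and 5.16 FPKM in shControl libraries. The groups overlapped in both.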
